A study of Homo sapiens with 12 samples.

Results

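The core autophagy machinery and its cargo receptors were followed as 44 genes, chosen by symbol from the steps of autophagosome formation, and each symbol matched 1 of the 58307 named rows of the count table. RNA was sequenced from A375 and SK-MEL-28, both established human melanoma cell lines, after Etoposide, a topoisomerase II poison, or after Etoposide + Rapamycin, in which the mTOR inhibitor rapamycin was added. Each of the 4 groups held 3 libraries that the study describes as biological replicates, and every library was exposed to etoposide. No library without etoposide was analysed here, and doses and times are not in the labels. All 44 genes passed the filter on low counts in every test.

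Autophagy delivers cytoplasm to lysosomes inside a membrane that is built anew. The ULK1 kinase complex starts the process, a lipid kinase complex around PIK3C3 then makes phosphatidylinositol 3-phosphate on the growing membrane, and proteins that read this lipid or move other lipids enlarge it. A conjugation system attaches the LC3 and GABARAP proteins to the membrane, receptors such as SQSTM1 tie cargo to them, and fusion with lysosomes follows. mTOR phosphorylates and restrains the ULK1 complex, so rapamycin is widely used to induce autophagy; that control acts on proteins, and the libraries measured mRNA alone.

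The libraries held 28189501 to 32499337 counts. Across 15474 genes, log2(CPM + 1) values (CPM, counts scaled to a library total of 1000000) correlated at 0.992 to 0.994 within a group, 0.983 to 0.988 between treatments of a line and 0.957 to 0.975 between lines. With etoposide alone, 581 of these genes differed over 2-fold between the lines. Of 8 melanocyte markers, TYR, the key enzyme of pigment synthesis, lay below 1 CPM in all 4 groups, MLANA, TYRP1 and DCT also lay below 1 CPM in A375, and MLANA did so in SK-MEL-28 with rapamycin. The summed level of the 8 markers ran from 399 to 658 CPM in the A375 libraries and from 294 to 549 CPM in the SK-MEL-28 libraries. Most of it was SOX10 and S100B, which averaged 430 and 87.0 CPM in A375 and 341 and 98.2 CPM in SK-MEL-28 with etoposide. Pigment genes were low in SK-MEL-28 too. With etoposide PMEL, MLANA, TYRP1 and DCT averaged 1.87, 1.20, 1.53 and 1.75 CPM there, and PMEL averaged 2.01 CPM in A375. The line labels were used as given, and the identity of the lines was not tested. Of the markers of other cell types, all 4 of leukocytes lay below 1 CPM in every group, as did COL1A2 of 5 fibroblast, KRT5 and KRT1 of 4 keratinocyte and CDH5 of 3 endothelial markers. Summed keratinocyte markers ran from 48.1 to 72.3 CPM over all libraries. Summed fibroblast markers were lower with rapamycin in SK-MEL-28, at 35.9 to 37.5 CPM against 40.4 to 45.9 CPM with etoposide, and overlapped in A375, at 20.9 to 25.1 CPM against 25.0 to 28.5 CPM. These markers did not move alike. In SK-MEL-28 LUM averaged 25.6 CPM with etoposide and 16.2 CPM with rapamycin, while PDGFRB averaged 14.8 and 18.65 CPM. In A375 LUM averaged 7.3 and 4.4 CPM, and PDGFRB 11.5 and 14.2 CPM. Endothelial sums did not overlap in either line, at 5.85 to 6.59 CPM with rapamycin against 6.66 to 9.35 CPM in A375 and 3.49 to 3.96 CPM against 4.70 to 5.99 CPM in SK-MEL-28. The part of these markers in the results was not tested. The libraries came from cultured cell lines, and the endothelial sums rest on low levels, such as 5.2 CPM for PECAM1 and 2.63 CPM for VWF in A375 with etoposide. PECAM1 was lower in every rapamycin library of each line, while the VWF libraries overlapped in both lines. Which cells these transcripts came from was not tested. Bulk RNA cannot show it, nor can it tell fewer cells of a kind from less RNA per cell.

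Rapamycin moved a minority of the 44 genes, mostly by small amounts. Called with the same sign in both lines were 5 of the 44, or 11.4%, near the 10.8% of all genes tested in both. In A375, 18 of 44 were called (adjusted p under 0.05 by edgeR's quasi-likelihood test), or 40.9%, where 28.1% of all 18844 genes tested were called. Of these, 6 rose (14.3% of all genes) and 12 fell (13.8% of all genes). In SK-MEL-28, 9 of 44 were called, or 20.5%, close to the 19% of all 18897 genes tested; 7 rose (8.83% of all genes) and 2 fell (10.1% of all genes). The median of the 44 log2 fold changes was -0.05 for A375 and 0.04 for SK-MEL-28, against -0.01 and 0.01 over all genes. Without its sign, the median change was 0.13 for A375 and 0.10 for SK-MEL-28, below the 0.22 and 0.18 of all genes. Neither these sizes nor the shares called were compared at like level. With etoposide 35 of the 44 genes lay above the median gene in each line, per kilobase of exon. Beyond the fold of 1.5 that the study used there was 1 called gene in each line, ATG4C in A375 (5.89% of all genes passed there) and MAP1LC3A in SK-MEL-28 (4.99%). The rapamycin and etoposide libraries did not overlap for 23 of the 44 genes in A375 (42.5% of all genes) and for 13 in SK-MEL-28 (35.9% of all genes). When library totals replaced TMM scaling, which moved the median of all genes to -0.05 for A375 and -0.03 for SK-MEL-28, the calls in the latter were 4 higher and 4 lower, and ATG4D, ATG10 and GABARAPL1 were no longer called there.

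**Figure D1:**
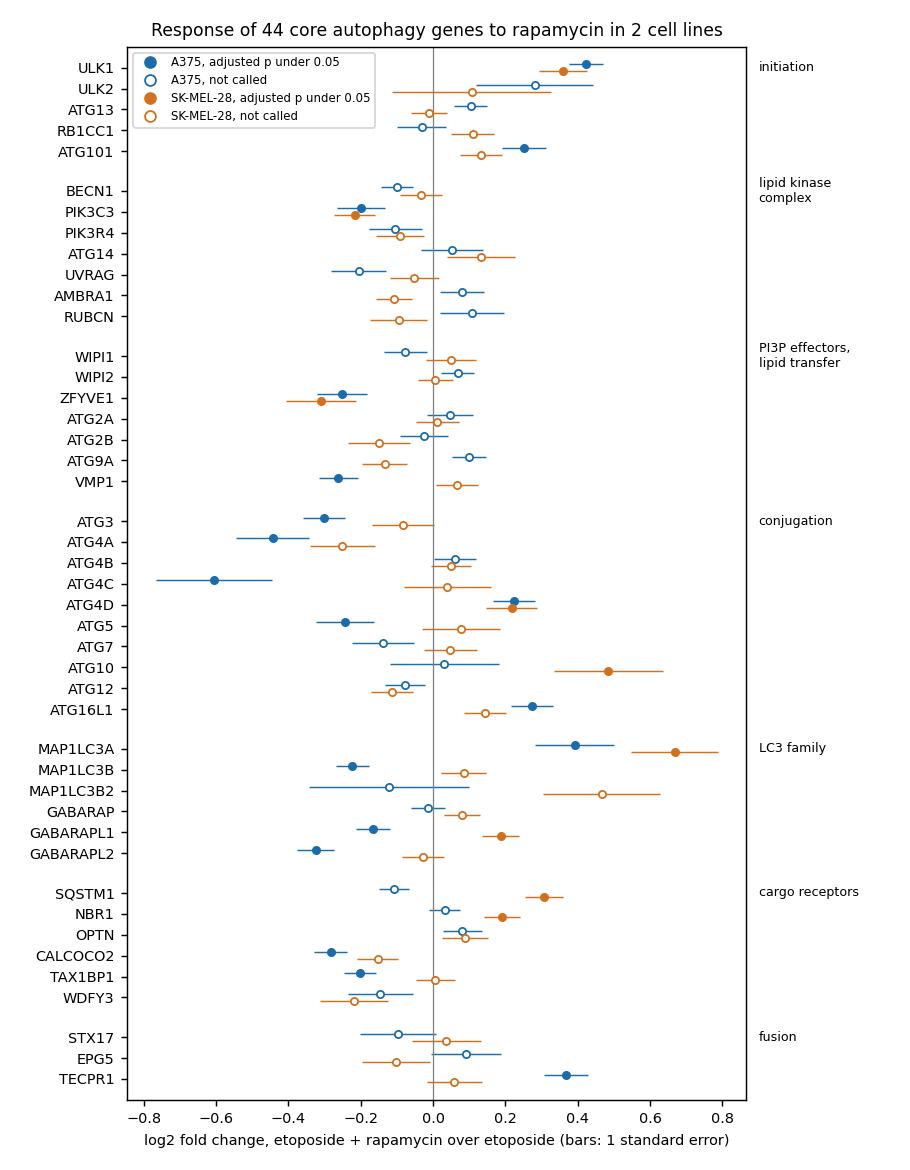
Log2 fold change of each of the 44 genes with rapamycin (x axis, etoposide + rapamycin over etoposide), ordered by step, in A375 (blue) and SK-MEL-28 (orange); bars are 1 standard error and filled points have an adjusted p under 0.05. In A375 18 points are filled, 6 to the right of 0 and 12 to the left, and in SK-MEL-28 9 are filled, 7 to the right and 2 to the left.

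Among the 5 initiation genes, ULK1 rose in both lines and ATG101 in A375. ULK1, the kinase that starts autophagy (chr12:131894622-131923150, GRCh38), stood at 87.5, 85.5 and 83.6 CPM in the A375 libraries with etoposide and at 114, 111 and 119 CPM with rapamycin added. In SK-MEL-28 it stood at 71.9, 86.4 and 82.5 CPM with etoposide and at 107, 99.8 and 103 CPM with rapamycin. Every rapamycin library lay above every etoposide library of its line. In A375 ULK1 rose by 0.42 (log2; standard error 0.047, adjusted p = 4.42e-05). Its rise in SK-MEL-28 was 0.36 (standard error 0.066, adjusted p = 0.00227), and both calls held with each library left out. ATG101, which stabilises ATG13 in the same complex, rose by 0.25 (log2; adjusted p = 0.00817) in A375, from 129 ± 10.9 to 154 ± 5.50 CPM (SD, n = 3), while its SK-MEL-28 value was 0.13 (adjusted p = 0.13). ULK2, the paralogue of ULK1, averaged 4.54 CPM with etoposide in A375, with log2 fold changes of 0.28 (adjusted p = 0.226) there and 0.11 (adjusted p = 0.793) in SK-MEL-28. The scaffold genes ATG13 and RB1CC1 were not called in either line, with log2 fold changes between -0.03 and 0.11.

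In the lipid kinase complex, PIK3C3 was the called gene of the 7 in each line, and it fell in both. PIK3C3 encodes the catalytic subunit VPS34 that makes phosphatidylinositol 3-phosphate. Its level in A375 was 59.5, 52.3 and 54.2 CPM with etoposide and 50.5, 49.5 and 45.0 CPM with rapamycin. In SK-MEL-28 it was 67.6, 60.1 and 64.3 CPM against 55.2, 54.0 and 56.5 CPM. The groups did not overlap in either line, though in A375 the gap was narrow, from 50.5 to 52.3 CPM. PIK3C3 fell by 0.20 (log2; standard error 0.065, adjusted p = 0.0378) in the former line and by 0.22 (standard error 0.056, adjusted p = 0.017) in the latter. Leaving out any library other than etoposide replicate 2 ended the call in each line, with adjusted p reaching 0.157 for A375 and 0.0672 for SK-MEL-28. The other 6 genes were not called. UVRAG, which directs PIK3C3 to endosomal work, came nearest in A375 (log2 fold change -0.21, adjusted p = 0.0615), and ATG14, the subunit that brings the complex to autophagosomes, had 0.05 and 0.13. BECN1, the scaffold of the complex, had -0.10 and -0.03.

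ZFYVE1 and VMP1 were called among the 7 genes that read the lipid signal or handle membrane lipids. ZFYVE1 encodes DFCP1, the protein that marks the site on the endoplasmic reticulum where the membrane forms. It stood at 39.3, 35.6 and 37.6 CPM with etoposide and 31.2, 33.2 and 30.4 CPM with rapamycin in A375. In SK-MEL-28 its levels were 32.8, 37.6 and 36.5 CPM against 33.3, 25.4 and 27.7 CPM, so rapamycin replicate 1 lay above etoposide replicate 1. A375 showed a fall of 0.25 (log2; standard error 0.069, adjusted p = 0.0168) and SK-MEL-28 of 0.31 (standard error 0.097, adjusted p = 0.0416). The A375 call was lost without etoposide + rapamycin replicate 1 or 3 or etoposide replicate 1 (adjusted p up to 0.0643). The SK-MEL-28 call was lost without replicate 2 or 3 of either treatment (up to 0.15).

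VMP1, an endoplasmic reticulum protein that moves phospholipids between membrane leaflets, fell in A375, from 226, 228 and 219 CPM to 202, 186 and 175 CPM. In SK-MEL-28 it stood at 215, 198 and 211 CPM with etoposide and 212, 234 and 208 CPM with rapamycin, where the groups overlapped. These are log2 fold changes of -0.26 (standard error 0.053, adjusted p = 0.00301) and 0.07 (standard error 0.058, adjusted p = 0.481). MIR21 lies in the same assembled locus as VMP1 (mean count 499.9 against 6277), and whether counting used strand is not given in the sources used here. The lipid readers WIPI1 and WIPI2, the lipid transfer genes ATG2A and ATG2B, and the scramblase ATG9A were not called in either line, with log2 fold changes from -0.15 (ATG2B in SK-MEL-28) to 0.10 (ATG9A in A375). ATG9A shares its locus with ABCB6, a transporter gene with a mean count of 828.2 against 3264.

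Of the 10 conjugation genes, 6 were called in A375, where 28.1% of all genes were: ATG4D and ATG16L1 rose, and ATG3, ATG4A, ATG4C and ATG5 fell. In SK-MEL-28, where 19% of all genes were called, ATG4D and ATG10 rose and the other 8 were not called. The ATG4 proteases trim LC3 before conjugation and release it from membranes afterwards, and they did not move together. ATG4C had the largest change of the 44 genes in A375, from 7.13, 5.74 and 8.54 CPM with etoposide to 4.99, 4.37 and 4.74 CPM with rapamycin. Its log2 fold change of -0.61 had a standard error of 0.16 and an adjusted p of 0.0137. The groups did not overlap, but the call was lost if etoposide replicate 3 was left out (-0.46, adjusted p = 0.074), and likewise without rapamycin replicate 2 (-0.56, adjusted p = 0.0539). In SK-MEL-28 ATG4C was at 8.08, 7.95 and 6.94 CPM with etoposide and at 7.72, 8.50 and 7.45 CPM with rapamycin (log2 fold change 0.04, standard error 0.12). ATG4A fell by 0.44 (adjusted p = 0.00565) in A375 and had -0.25 in SK-MEL-28 (adjusted p = 0.0713). ATG4B was not called in either line, at 0.06 and 0.05.

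ATG4D rose in both lines. Its levels in A375 were 45.8, 45.4 and 46.2 CPM with etoposide and 53.4, 50.6 and 56.9 CPM with rapamycin. In SK-MEL-28 they were 36.7, 43.9 and 41.3 CPM and 46.4, 48.7 and 47.0 CPM. Neither line's groups overlapped, and the gene rose by 0.22 (log2) in each, with a standard error of 0.057 in A375 (adjusted p = 0.0112) against 0.070 for the other line (adjusted p = 0.0462). The A375 call was lost without etoposide + rapamycin replicate 3 (0.18, adjusted p = 0.0565). The SK-MEL-28 call was lost without any library but etoposide replicate 2 (adjusted p up to 0.129).

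ATG5 encodes the protein that joins ATG12 and, with ATG16L1, sets where LC3 is attached. It stood at 23.1, 22.6 and 23.4 CPM with etoposide in A375 and at 20.4, 19.5 and 18.7 CPM with rapamycin, with no overlap. It fell there by 0.24 (log2; standard error 0.080, adjusted p = 0.0377), and the call was lost with each of the 6 libraries left out in turn (adjusted p up to 0.117). In SK-MEL-28 the levels overlapped, at 22.3, 19.7 and 19.3 CPM against 22.2, 24.4 and 18.3 CPM (log2 fold change 0.08, adjusted p = 0.679). Its partner ATG16L1 rose in A375 from 58.8 ± 3.10 to 71.2 ± 3.82 CPM (SD, n = 3; log2 fold change 0.27, adjusted p = 0.00412) and had 0.14 (adjusted p = 0.107) in SK-MEL-28, where the groups also did not overlap. ATG3, the enzyme that hands LC3 to its lipid, fell in A375 by 0.30 (adjusted p = 0.00195) from 45.0 ± 1.57 to 36.6 ± 0.127 CPM and had -0.08 (adjusted p = 0.562) in SK-MEL-28. ATG10, the enzyme that joins ATG12 to ATG5, rose in SK-MEL-28 from 6.94, 5.43 and 4.70 to 7.39, 8.35 and 8.16 CPM (log2 fold change 0.48, adjusted p = 0.04). That call held without etoposide replicate 1 and was lost without any other library (adjusted p up to 0.152). The activating enzyme ATG7 and ATG12 were not called in either line.

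The 6 LC3 family genes encode the proteins that are attached to the membrane and bind receptors. MAP1LC3A rose in both lines, while MAP1LC3B, GABARAPL1 and GABARAPL2 fell in A375 and GABARAPL1 rose in SK-MEL-28. MAP1LC3A stood at 19.1, 24.5 and 21.7 CPM with etoposide in A375 and at 28.9, 24.9 and 32.1 CPM with rapamycin. In SK-MEL-28 it stood at 10.2, 11.7 and 12.2 CPM and at 20.6, 18.4 and 15.4 CPM. The groups did not overlap in either line, although the nearest A375 libraries were 24.5 and 24.9 CPM. MAP1LC3A rose by 0.39 (log2; standard error 0.11, adjusted p = 0.0187) in A375. In SK-MEL-28 it rose by 0.67 (standard error 0.12, adjusted p = 0.00189), the largest change of the 44 there. The SK-MEL-28 call held with each library left out. In A375 the call was lost without rapamycin replicate 1 (0.0542) or 3 (0.0913) and without etoposide replicate 1 (adjusted p = 0.0636).

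MAP1LC3B, the LC3 gene whose protein is most often blotted as an autophagy marker, stood at 173, 174 and 173 CPM with etoposide in A375 and at 154, 151 and 142 CPM with rapamycin. In SK-MEL-28 it stood at 165, 140 and 150 CPM and at 158, 164 and 162 CPM. The A375 groups did not overlap and the SK-MEL-28 groups did. MAP1LC3B thus fell by 0.22 (log2; standard error 0.046, adjusted p = 0.00314) in A375, and its SK-MEL-28 value was 0.08 (standard error 0.062, adjusted p = 0.385).

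GABARAPL1 was called in both lines with opposite signs, as 0.436% of all genes tested in both lines were. It fell in A375 from 85.3, 87.0 and 91.5 to 79.6, 77.5 and 78.6 CPM and rose in SK-MEL-28 from 90.3, 87.6 and 83.9 to 100.2, 103 and 95.7 CPM, without overlap in either line. The log2 fold changes were -0.17 (standard error 0.047, adjusted p = 0.0195) and 0.19 (standard error 0.052, adjusted p = 0.0232). In A375 the call was lost without any rapamycin library or etoposide replicate 3 (adjusted p up to 0.0992), and in SK-MEL-28 without etoposide replicate 2 or 3 or etoposide + rapamycin replicate 2 (up to 0.0979). GABARAPL2 fell in A375 from 79.3, 82.9 and 81.1 to 64.9, 67.4 and 62.4 CPM. In SK-MEL-28 it was at 73.5, 76.6 and 80.5 CPM and at 70.0, 79.0 and 77.8 CPM, overlapping. Its log2 fold changes were -0.32 (standard error 0.050, adjusted p = 0.000501) and -0.03 (standard error 0.058, adjusted p = 0.793). GABARAP was not called in either line, with -0.01 and 0.08; it shares an assembled locus with CTDNEP1 (mean count 3863 against 5143), so its counts depend on how reads were split there.

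Per kilobase of exon, GABARAP supplied the most of the family's summed mRNA level, 44.9% ± 0.898 in A375 and 50% ± 1.25 in SK-MEL-28 with etoposide (SD, n = 3). MAP1LC3A supplied 10% ± 0.986 of it in A375 with etoposide and 13.7% ± 1.61 with rapamycin, and 5.56% ± 0.567 and 8.12% ± 1.26 in SK-MEL-28. The family's summed level was 188 ± 6.03 CPM per kb with etoposide and 181 ± 4.29 with rapamycin in A375, with overlapping library ranges of 182 to 192 and 177 to 186. In SK-MEL-28 it was 178 ± 1.92 and 194 ± 4.11 CPM per kb, and the library ranges of 176 to 179 and 190 to 198 did not overlap. These shares and sums depend on the exon lengths used, 1951 bases for GABARAP and 5037 for MAP1LC3B, and on the read split at the CTDNEP1 locus. Before scaling by length, MAP1LC3B averaged 173.5 CPM and GABARAP 165 CPM in A375 with etoposide. In SK-MEL-28 with etoposide they averaged 152 and 173 CPM.

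MAP1LC3B2 is a near copy of MAP1LC3B, and its values are uncertain for that reason. Over their coding sequences, which are of equal length (GENCODE release 44, without the stop codon), the genes share 99.5% and differ at 2 bases, C30G and A338G, with the MAP1LC3B base first and positions counted from 1 at the A of the start codon. By comparison, GABARAP and GABARAPL1 share 76.6% and MAP1LC3A and MAP1LC3B 73.6% of their aligned coding bases. A coding read that covers neither differing base fits both genes equally. The stretches around both bases are shown to let that be seen, from 1 to 60 and from 308 to 367, with the differing base in capitals.
MAP1LC3B, bases 1 to 60: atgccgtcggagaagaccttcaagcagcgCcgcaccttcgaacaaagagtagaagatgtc
MAP1LC3B2, bases 1 to 60: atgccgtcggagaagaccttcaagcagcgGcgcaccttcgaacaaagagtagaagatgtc
MAP1LC3B, bases 308 to 367: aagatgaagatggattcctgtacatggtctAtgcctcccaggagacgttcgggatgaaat
MAP1LC3B2, bases 308 to 367: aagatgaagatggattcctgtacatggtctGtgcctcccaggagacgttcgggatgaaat
MAP1LC3B (chr16:87383953-87404779, GRCh38) had a mean of 4762 counts per library and MAP1LC3B2 (chr12:116548105-116576606) 111. MAP1LC3B2 was at 3.58 ± 0.792 and 3.30 ± 0.717 CPM in A375 and at 3.33 ± 0.162 and 4.61 ± 0.590 CPM in SK-MEL-28, with etoposide and with rapamycin (SD, n = 3). It was called in neither line (adjusted p = 0.732 and 0.0631).

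**Figure D2:**
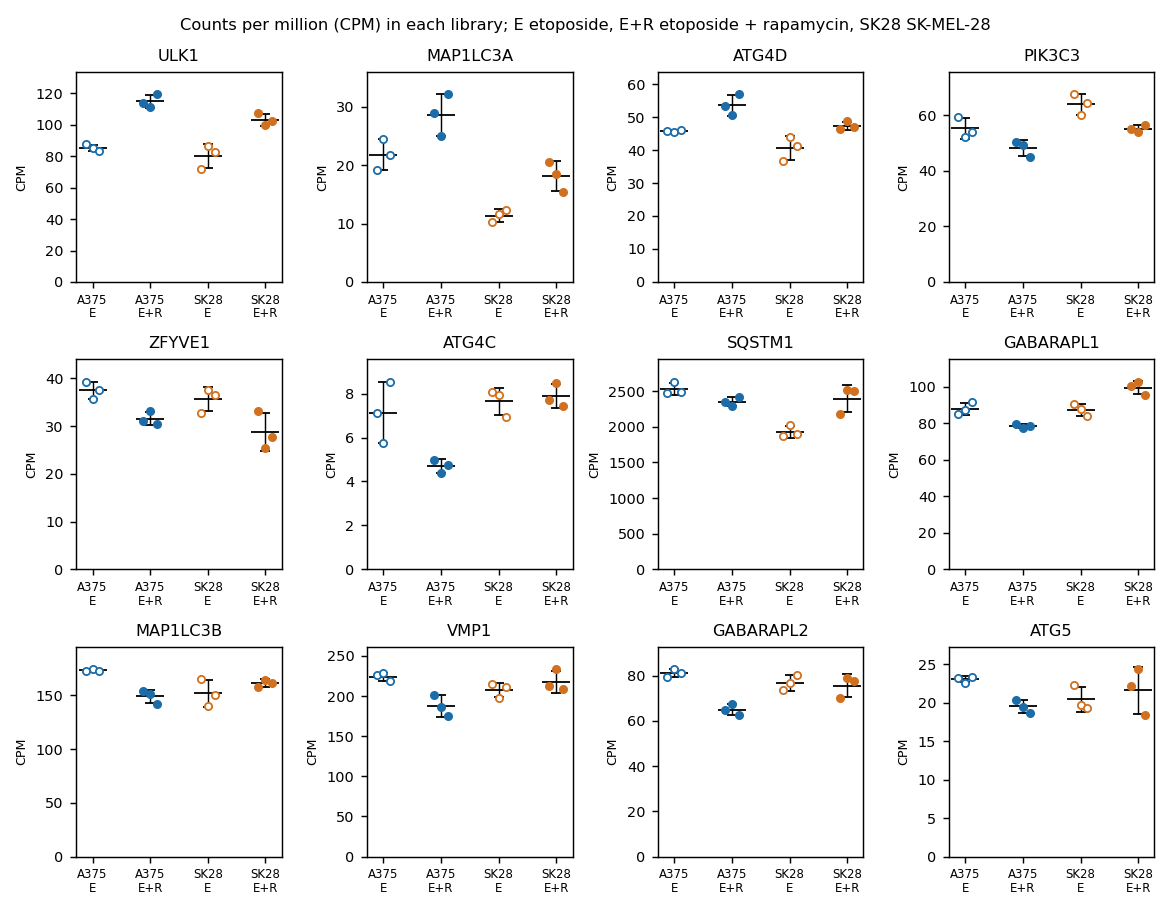
CPM (y axis, from 0) of 12 genes in each of the 12 libraries, by line and treatment; points are libraries, wide lines are means and bars are SD (n = 3). ULK1, MAP1LC3A and ATG4D lie higher in every rapamycin library of both lines, PIK3C3 lies lower, and GABARAPL1 lies lower in A375 and higher in SK-MEL-28.

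Of the 6 cargo receptors and adaptors, SQSTM1 and NBR1 rose in SK-MEL-28, and CALCOCO2 and TAX1BP1 fell in A375. SQSTM1 encodes p62, which binds ubiquitin on cargo and LC3 on the membrane and is itself degraded by autophagy. It stood at 2472, 2633 and 2486 CPM with etoposide in A375 and at 2349, 2293 and 2421 CPM with rapamycin. In SK-MEL-28 it stood at 1872, 2028 and 1896 CPM and at 2179, 2510 and 2498 CPM. The groups did not overlap in either line, and the order was reversed between them. SQSTM1 rose by 0.31 (log2; standard error 0.053, adjusted p = 0.0014) in SK-MEL-28, a call that held with each library left out. In A375 it was -0.11 (standard error 0.041, adjusted p = 0.0677), which was not called.

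NBR1, a receptor related to p62, rose in SK-MEL-28 from 228 ± 6.21 to 261 ± 8.79 CPM (SD, n = 3; log2 fold change 0.19, adjusted p = 0.0168) and had 0.03 (adjusted p = 0.626) in A375. Its call was lost without etoposide replicate 2 (adjusted p = 0.0673) or 3 (0.0535). CALCOCO2, or NDP52, a receptor for invading bacteria and damaged mitochondria, fell in A375 from 79.3 ± 1.08 to 65.3 ± 0.956 CPM (log2 fold change -0.28, adjusted p = 0.000708). Its relative TAX1BP1 fell there from 200.4 ± 6.09 to 175 ± 4.30 CPM (-0.20, adjusted p = 0.00493). In SK-MEL-28 these had -0.15 (adjusted p = 0.082) and 0.01 (adjusted p = 0.949). OPTN, another ubiquitin-binding receptor, and the large scaffold WDFY3 were called in neither line. Of the 3 fusion genes, TECPR1, which binds the ATG12-ATG5 conjugate and lysosomal membranes, rose in A375 from 42.0 ± 2.29 to 54.3 ± 2.59 CPM (0.37, adjusted p = 0.000875) and had 0.06 (adjusted p = 0.646) in SK-MEL-28. The fusion SNARE gene STX17 and the tether gene EPG5 were not called.

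Called in both lines with the same sign were 5 of 44 genes, ULK1, ATG4D and MAP1LC3A upward and PIK3C3 and ZFYVE1 downward. That is 11.4%, next to 10.8% of the 18140 genes tested in both lines. Leaving out 1 library brought the count to between 1 and 5, lowest without A375 etoposide + rapamycin replicate 3. With library totals in place of TMM scaling the count was 6, 2 upward and 4 downward.

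The difference in response between the lines was tested directly, in a fit of all 12 libraries. It was past the threshold for 5 of 44 genes, or 11.4%, where 5.62% of all 20101 genes tested were called and 2.66% were called in the upward direction. All 5 had the larger value in SK-MEL-28. They were SQSTM1 (log2 difference 0.42, standard error 0.071, adjusted p = 0.00234), GABARAPL1 (0.36, 0.069, 0.00539), VMP1 (0.34, 0.080, 0.0213), MAP1LC3B (0.32, 0.077, 0.025) and GABARAPL2 (0.30, 0.081, 0.0368). In the LC3 family 3 of 6 genes were called and all 6 differences were positive, with a median of 0.31 against 0.02 over all genes. The 6 include MAP1LC3B2 (0.60, standard error 0.28), whose reads may belong to MAP1LC3B, so the values are not all separate measurements. They also include GABARAP (0.10, standard error 0.065), which shares a locus with CTDNEP1, and neither of these was called. The calls of SQSTM1 and GABARAPL1 held with each of the 12 libraries left out. Those of VMP1, MAP1LC3B and GABARAPL2 were lost without 4, 6 and 8 libraries, with adjusted p up to 0.0696, 0.0782 and 0.104; A375 etoposide replicate 2, A375 etoposide + rapamycin replicate 3, SK-MEL-28 etoposide replicate 2 and SK-MEL-28 etoposide + rapamycin replicate 2 were among them for each gene. The largest estimate, 0.65 for ATG4C, had a standard error of 0.20 and was not called (adjusted p = 0.0649). For ULK1, PIK3C3, ZFYVE1 and ATG4D the difference was between -0.06 and 0.00, with standard errors from 0.085 to 0.12. For MAP1LC3A it was 0.29 (standard error 0.17, adjusted p = 0.39).

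**Figure D3:**
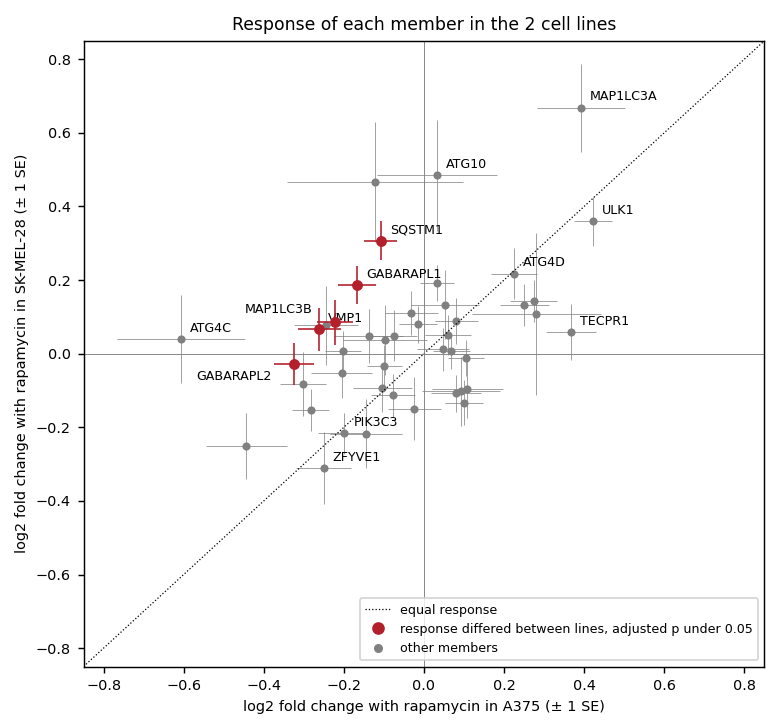
Log2 fold change with rapamycin in A375 (x axis) and in SK-MEL-28 (y axis) for each of the 44 genes, with bars of 1 standard error; the dotted line marks equal response and red points are the genes whose response differed (adjusted p under 0.05). The 5 red points, SQSTM1, GABARAPL1, VMP1, MAP1LC3B and GABARAPL2, lie above the dotted line; their tested differences were 0.30 to 0.42.

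With etoposide alone 14 of 44 genes were called between the lines, or 31.8%, the same share as among all 20101 genes (31.8%), so the core genes did not stand apart from other genes in this count. Of the 14, 6 (15.1% of all genes) were higher and 8 (16.7% of all genes) lower in SK-MEL-28, and the libraries of 17 genes did not overlap (43.4% of all genes). Those higher in SK-MEL-28 included 4 of the 7 lipid kinase genes. RUBCN, which restrains that complex, stood at 14.8, 13.7 and 14.5 CPM in A375 and at 24.1, 24.5 and 24.2 CPM in SK-MEL-28 (log2 difference 0.75, standard error 0.075, adjusted p = 6.2e-07). BECN1 had 0.34 (97.3, 99.1 and 99.8 CPM against 129, 123 and 125 CPM), and AMBRA1, a regulator of BECN1, 0.24 (51.1, 45.6 and 47.7 CPM against 57.8, 56.3 and 56.8 CPM). PIK3C3 had 0.20 (adjusted p = 0.019), a call lost without A375 etoposide replicate 2 or 3 or SK-MEL-28 etoposide replicate 1 or 3, and ATG13 of the initiation complex 0.18 (170.0, 167 and 159 CPM against 183, 193 and 189 CPM). The sixth, the cargo receptor CALCOCO2, had an adjusted p of 0.0461 by edgeR, and its call held in 3 of the 12 fits that left out a library (adjusted p up to 0.161).

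The 8 genes with the lower level in SK-MEL-28 were led by MAP1LC3A (log2 difference -0.94, standard error 0.12, adjusted p = 1.59e-05), whose levels are given above. WIPI1, a reader of phosphatidylinositol 3-phosphate, followed at -0.61 (51.0, 55.9 and 52.1 CPM in A375, 35.7, 35.1 and 33.8 CPM in SK-MEL-28). OPTN had -0.56 (74.0, 79.0 and 78.7 CPM against 57.8, 50.3 and 50.3 CPM). ATG101 had -0.54 (117, 138 and 132 CPM against 82.5, 93.9 and 91.4 CPM) and ATG16L1 -0.53 (59.5, 61.4 and 55.3 CPM against 40.6, 40.9 and 40.9 CPM). None of these 5 had overlapping libraries, and each call held with every library left out. SQSTM1 (-0.40), MAP1LC3B (-0.20) and ATG4D (-0.18) were also lower. The SQSTM1 call held with every library left out, while that of MAP1LC3B was lost without SK-MEL-28 etoposide replicate 2 (-0.14, adjusted p = 0.0642). The ATG4D call (adjusted p = 0.0426) held in 3 of the 12 fits that left out a library, and its value was -0.11 (adjusted p = 0.207) without SK-MEL-28 etoposide replicate 1. Past a fold of 1.5 there were 3 genes, RUBCN, MAP1LC3A and WIPI1, or 3 of 44 against 12.5% of all genes.

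On a scale of CPM per kilobase of exon, which allows genes to be compared, SQSTM1 stood far above the rest, at 336 ± 11.9 in A375 and 256 ± 11.1 in SK-MEL-28 with etoposide (SD, n = 3), above 99.5% and 99.3% of 16159 genes. GABARAP (84.7 ± 3.43), ATG101 (40.3 ± 3.40) and MAP1LC3B (34.4 ± 0.161) followed in A375. The lowest was ULK2, at 0.460 ± 0.0456 in A375, above 20.1% of genes, while ULK1 was at 11.2 ± 0.253. In each line 35 of the 44 genes lay above the median of all genes, 3.37 CPM per kb in A375 and 3.32 in SK-MEL-28. Exon length was the union of all annotated exons of a gene, so genes with many alternative exons are given too low a value on this scale.

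**Figure D4:**
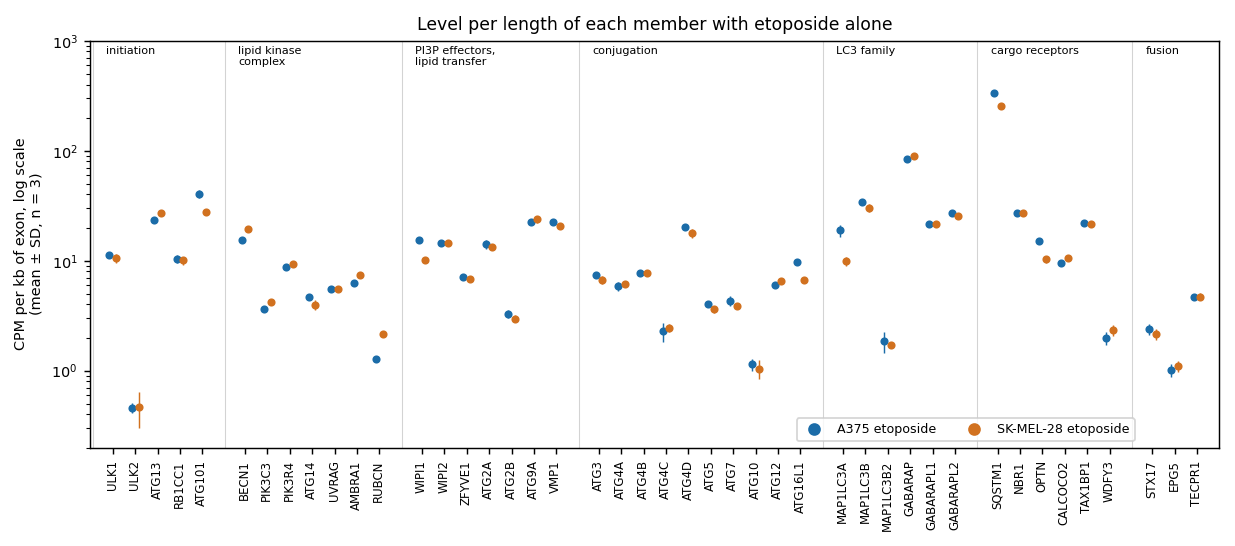
CPM per kilobase of exon (y axis, log scale) of each of the 44 genes with etoposide alone, by step, as mean ± SD of 3 libraries in A375 (blue) and SK-MEL-28 (orange). SQSTM1 is highest at 336 and 256 and ULK2 lowest at 0.460 and 0.470.

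A further 32 autophagy genes outside the 44 were counted in the same way. In A375, 13 of the 31 tested were called, or 41.9%, with 2 higher and 11 lower, beside 28.1% of all genes (14.3% higher and 13.8% lower). In SK-MEL-28, 6 of 32 were called, or 18.8%, with 3 higher and 3 lower, beside 19% of all genes (8.83% higher and 10.1% lower). The core genes had 40.9% and 20.5%. Called in both lines with the same sign were 4 of these genes, where 10.8% of all genes tested in both lines were so called. They were WDR45, a lipid reader of the WIPI family, which rose by 0.27 and 0.34, and 3 that fell. The latter were TP53INP2, a nuclear protein that aids LC3 relocation (-0.45 and -0.57), TBK1, a kinase of cargo receptors (-0.41 and -0.23), and EI24, an endoplasmic reticulum protein (-0.20 and -0.16). In A375 WDR45 stood at 141, 149 and 139 CPM with etoposide and at 181, 166 and 171 CPM with rapamycin, and in SK-MEL-28 at 136, 144 and 146 CPM and 178, 179 and 182 CPM. TP53INP2 went from 49.4, 49.0 and 52.5 to 38.4, 36.8 and 35.2 CPM in A375 and from 37.7, 37.1 and 40.6 to 27.1, 25.1 and 25.8 CPM in SK-MEL-28. TBK1 went from 53.8, 53.3 and 52.3 to 43.2, 38.1 and 39.0 CPM and from 54.6, 50.03 and 52.3 to 43.9, 43.8 and 46.7 CPM. EI24 went from 183, 187 and 174 to 158, 158 and 158 CPM and from 219, 211 and 217 to 189, 192 and 198 CPM. The groups did not overlap for any of these genes in either line. In SK-MEL-28 the TBK1 call was lost without replicate 1 of either treatment, etoposide + rapamycin replicate 2 or etoposide replicate 3, and the EI24 call without any library but etoposide replicate 2 (adjusted p up to 0.0599 and 0.118).

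Promoter windows from 250 bases before to 50 bases after the start (RefSeq, GRCh38.p14) were found for 37 of the 44 genes, in 47 windows. They were searched for CACGTG, the E-box core read by the MiT/TFE factors that mTOR restrains, for its longer form TCACGTG, which contains it, and for the forkhead motif GTAAACA, on both strands. CACGTG was in 2 windows, or 4.26%, against 7.26% of 35116 windows in all. TCACGTG was in the same 2, against 3.71% of all, and GTAAACA in 1, that of CALCOCO2, or 2.13% against 3.42%. The windows with CACGTG belong to ATG3, 18 bases before and again 6 bases after the start, and to ATG14, 21 bases before it. ATG3 fell in A375 and ATG14 was called in neither line. The 7 genes without a window, MAP1LC3A and ATG4D among them, were not searched. The 60 bases before the start are shown for these because they are the matches found, with the motif in capitals.
ATG3, chr3:112561963-112562022, minus strand: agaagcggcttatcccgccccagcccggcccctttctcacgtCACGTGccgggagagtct
ATG14, chr14:55411831-55411890, minus strand: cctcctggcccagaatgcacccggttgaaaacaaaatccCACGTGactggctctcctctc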

How the data were processed

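The authors sequenced polyadenylated RNA of 12 libraries, aligned reads with HISAT2, estimated expression with StringTie (GRCh38, Ensembl annotation) and deposited raw counts per gene and library, without normalization or pooling. How coverage became counts, and whether strand was used, is not given in the sources used here. The 5 rows without a gene name (0.000991% to 0.00529% of counts) were left out.

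Counts were tested with edgeR 4.0.16 in R 4.3.3: filterByExpr with a minimum count of 10, TMM scaling, the quasi-likelihood test, and Benjamini-Hochberg adjustment over all genes. Each line was fitted alone; line and response differences used all 12 libraries. Standard errors are the log2 fold change over the root of the F statistic. Each p-value judges a difference against the spread between these libraries. CPM is TMM-scaled over the 12 libraries; exon lengths are GENCODE release 44. Alternatives were DESeq2 1.42.0, RLE factors, library totals, other filters, a replicate block, halved counts, summed rows, a fold threshold, joint or smaller fits, and each library left out. The test was tried on simulated data first.

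Members and lists were chosen with earlier results of these data known. Genes were given per library if called alike in both lines, if their response differed between lines, if called with a fold over 1.5, or if MAP1LC3A, MAP1LC3B, SQSTM1 or ATG5; between lines, the 5 largest called each way; of other autophagy genes, those called alike in both lines. Values of other genes were added after they were seen.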

Additional observations from a re-analysis of the deposited data

Results flagged for a closer look

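The response to rapamycin differed between SK-MEL-28 and A375 by a test of the difference itself (edgeR, 12 libraries, adjusted over all genes) for 5 of 44 core genes (11.4%) and 3 of 32 other autophagy genes (9.38%), where 5.62% of all 20101 genes were called. The log2 differences, SK-MEL-28 minus A375, were 0.423 for SQSTM1 (adjusted p = 0.00234), 0.361 for GABARAPL1 (0.00539), 0.335 for VMP1 (0.0213), 0.316 for MAP1LC3B (0.025) and 0.305 for GABARAPL2 (0.0368). Of the other genes, TMEM41B, a lipid scramblase that works with VMP1, had 0.565 (0.00823), TP53INP1, a p53 target that binds LC3, 0.325 (0.0317), and RAB7A, a GTPase of late endosomes, 0.22 (0.0401). TMEM41B fell in A375 from 23.4, 22.7 and 24.9 to 17.2, 17.9 and 17.1 CPM and stood at 19.4, 19.7 and 21.2 CPM with etoposide and 20.2, 23.9 and 21.2 CPM with rapamycin in SK-MEL-28. The calls of SQSTM1, GABARAPL1 and TMEM41B held with each of the 12 libraries left out. Those of RAB7A and TP53INP1 held with 3 and 4 of 12 left out, with adjusted p up to 0.143 and 0.0883.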

How the results depend on the processing

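No gene named as called changed sign under any alternative run. Of 68 single calls, DESeq2 and RLE factors each kept 67, library totals 65, the filter of 1 count in any library 48 and the replicate block 57, and 39 held with every library left out; 10 counts in every library, halved counts and summed rows kept all 68. Of 46 calls, 45 held in a joint fit, and of 14 between lines, 12 held in the 6 etoposide libraries alone. With a fold over 1.5 the core genes called were 1 in A375, 1 in SK-MEL-28, 3 between lines, 0 in both lines (0 at an unadjusted p under 0.05 by edgeR, and 0 by DESeq2) and 0 for the response difference (2 at an unadjusted p under 0.05 by edgeR, ATG4C and MAP1LC3B2; 1 by DESeq2, ATG4C). With 1 count in any library as the filter they were 4 in SK-MEL-28, 1 in both lines and 2 for the response difference. Over all genes this filter gave 2508 calls in SK-MEL-28, against 3582 in the main fit, and 658 response differences, against 1130. DESeq2 called 9 response differences, 7 upward and 2 downward, adding ATG4C, TAX1BP1, ATG9A and TECPR1. Over all genes it called 1811 response differences, where edgeR called 1130. With a library left out the counts ran from 12 to 17 in A375, 3 to 8 in SK-MEL-28 (lowest without etoposide replicate 3), 1 to 5 in both lines, 2 to 7 for the response difference and 11 to 14 between lines. Calls over all genes were fewer too in the fits with the lowest counts of each line. They were 3886 against 5295 in A375, without etoposide + rapamycin replicate 3, and 2480 against 3582 in SK-MEL-28. The cause of these shifts was not tested. Replicate numbers showed no pairing of libraries: same-number correlations of deviations were -0.0292 to 0.0209 in A375 and -0.0297 to -0.00821 in SK-MEL-28. Different-number correlations were -0.0346 to 0.0262 and -0.0124 to 0.0363. Deviations were taken from means of only 3 libraries, so this check cannot exclude pairing. With the replicate block 15 were called in A375, 7 in SK-MEL-28, 15 between lines, 3 in both lines and 2 for the response difference. Over all genes the block gave 4480, 3363 and 6362 calls in A375, in SK-MEL-28 and between lines, and 620 response differences.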
